A study of Homo sapiens with 12 samples.

Results

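The HOX genes are homeodomain transcription factors that lie in 4 clusters, HOXA to HOXD, each numbered along the chromosome from paralogue position 1 at one end to 13 at the other. They were taken from the count tables as every protein-coding gene named HOXA, HOXB, HOXC or HOXD with a number, which gave 39 genes of the 60106 listed. The HOXA cluster held 11 of them (chromosome 7, 27132612 to 27239725), HOXB held 10 (chromosome 17, 46605888 to 46806540), HOXC held 9 (chromosome 12, 54332549 to 54449814) and HOXD held 9 (chromosome 2, 176957619 to 177055635). These coordinates are those of the tables, on GRCh37. In development, genes of low position act toward the head and genes of high position toward the tail and the urogenital tract, and a cell keeps part of that pattern in adult life. HOXB13, at the high end of HOXB, is a lineage factor of the prostate. FOXA1 is a forkhead factor that opens chromatin at many of the same prostate enhancers.

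RNA was sequenced from 2 established human prostate cancer lines, PC3 and VCaP, 72 hours after transfection with either a control siRNA that targets no gene (NSI) or one directed at FOXA1 (siFOXA1), and each of the 4 groups had 3 libraries. VCaP carries a rearranged ERG gene. PC3 received 20 nM siRNA in RPMI and was sequenced from polyadenylated RNA, counted without regard to strand. VCaP received 40 nM in DMEM and was sequenced from total RNA, counted by strand, so line, dose, medium, kit and strand setting cannot be told apart. The PC3 libraries totalled 123140099 to 188226483 counts each and the VCaP libraries 48187047 to 59839211. The labels do not say that replicates were separate cultures, so p-values measure the spread between these samples. The siRNA target fell in both lines, from 268 ± 25.6 to 171 ± 11.5 CPM (counts scaled to the library total, mean ± SD, n = 3) in PC3 and from 489.7 ± 46.9 to 80.6 ± 6.19 in VCaP, with log2 fold changes of −0.65 and −2.60 (edgeR quasi-likelihood adjusted p 0.00222 and 1.84e-07). Of a list of markers chosen for the lines, ERG averaged 0.0292 CPM in PC3 NSI and 238 in VCaP NSI, and VIM averaged 739.6 in PC3 and 0.257 in VCaP.

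The first comparison was of the NSI levels, which show which part of each cluster a line uses. Levels were set between genes per length, as RPKM, the CPM divided by the exon length in kb. Summed over the clusters, both lines expressed mainly the high positions. Positions 9 to 13 held 94.7% ± 0.533 of the summed HOX RPKM in PC3 NSI and 85.1% ± 1.47 in VCaP NSI (SD, n = 3). HOXB13 alone made up 61.0% and 46.9%, and the high positions did not lead in every cluster. In VCaP NSI, HOXC6, HOXC4 and HOXC5 averaged 8.001, 1.62 and 1.17 RPKM, and HOXC9 to HOXC13 at most 0.445. HOXC6 was the highest HOXC gene in PC3 NSI too, at 0.544, and HOXD8 the highest HOXD gene in VCaP NSI, at 0.998. The HOX sum itself was 168 ± 4.17 RPKM in PC3 and 155 ± 7.06 in VCaP. By cluster, HOXB held 67.5% of that sum in PC3 and 47.4% in VCaP, HOXA held 30.0% and 43.5%, HOXC held 0.781% and 7.80%, and HOXD held 1.77% and 1.37%.

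HOXB13 (ENSG00000159184.7_2, chromosome 17, 46802125 to 46806540, minus strand) was the highest HOX gene of both lines. Its NSI libraries read 99.9, 103.9 and 104.5 RPKM in PC3 and 72.3, 67.0 and 79.2 in VCaP. The means of 102.8 ± 2.52 and 72.9 ± 6.14 RPKM made up 61.0% and 46.9% of all HOX RPKM, and each library of a line lay above every other HOX gene there. In PC3 the next was HOXA9 (ENSG00000078399.17_3, chromosome 7, 27202054 to 27205149, minus strand), known for its part in leukaemia and blood stem cells, with 21.1, 24.4 and 21.8 RPKM in NSI. HOXA9 read 4.28, 4.40 and 4.39 RPKM in VCaP NSI and was the sixth gene there. HOXA13 (ENSG00000106031.7_2, chromosome 7, 27233983 to 27239725, minus strand), required for limb and genital tract development, was the third gene in PC3, with 15.2, 13.7 and 15.0 RPKM, and the second in VCaP, with 29.5, 33.4 and 34.0. HOXA10 (ENSG00000253293.4_3, chromosome 7, 27210210 to 27219880, minus strand), a reproductive tract regulator, was the third gene in VCaP, with 18.0, 18.1 and 19.5 RPKM, and the fifth in PC3, with 5.07, 6.06 and 5.43.

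The order below these genes differed between the lines. In PC3 it went on with HOXB9 at 7.74 ± 0.466 RPKM, HOXA10 at 5.52 ± 0.502, HOXA11 at 4.82 ± 0.433 and HOXA3 at 1.18 ± 0.0889. Of the HOXA11 exon bases, 23.8% lie opposite HOXA11-AS1, at 18.4 ± 3.12 CPM in PC3 NSI. Of the HOXA10 exon bases, 19.3% lie opposite HOXA-AS4, at 13.5 ± 1.17 CPM. Without strand in PC3 the reads of those stretches cannot be told apart, while VCaP was counted by strand. The libraries of HOXA10 and HOXA11 overlapped in PC3, and so did those of neighbouring genes from rank 8 to rank 14, HOXD13 at 0.982 to HOXB7 at 0.787 RPKM. The HOXB7 mean and rank rest on replicate 3 at 2.23 RPKM, with the other libraries at 0.0627 and 0.0741. In VCaP the genes ranked 4 to 10 were HOXC6 at 8.001 ± 0.683, HOXA5 at 4.88 ± 0.198, HOXA9 at 4.36 ± 0.0671, HOXA6 at 3.69 ± 0.395, HOXA11 at 2.22 ± 0.119, HOXC4 at 1.62 ± 0.146 and HOXC5 at 1.17 ± 0.218 RPKM. Of these, the libraries of HOXC5 overlapped those of the gene that followed, HOXD8 at 0.998 ± 0.206. With a mean of at least 1 RPKM as the limit, 5 genes were detected in both lines (HOXA9, HOXA10, HOXA11, HOXA13 and HOXB13), 2 in PC3 alone (HOXA3 and HOXB9), 5 in VCaP alone (HOXA5, HOXA6, HOXC4, HOXC5 and HOXC6) and 27 in neither. The limit cut close, with HOXD13 at 0.982 just under it in PC3 and HOXD8 at 0.998 just under it in VCaP.

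The NSI levels were then tested between the lines in 1 fit of all 12 libraries. Of 39 genes, 33 passed the filter on low counts, and 28 of these were called at an adjusted p under 0.05, 11 higher in VCaP and 17 lower. Over all 30425 genes tested 86.9% were called, 42.7% higher and 44.2% lower, so a call alone says little here and the sizes are what separates the genes. The clusters did not move alike. All 9 tested HOXB genes had lower values in VCaP, 8 of them called, with a median log2 difference of −3.01. HOXB7 was lower only with PC3 NSI replicate 3 and differed by 2.45 without it. In HOXC, 6 of 9 were called higher in VCaP and 1 lower, with a median of 2.77, while HOXA had 5 called in each direction of 11 tested. The median over all genes was −0.03, and upper-quartile scaling moved it to 0.27.

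HOXB9 (ENSG00000170689.9_3, chromosome 17, 46698521 to 46703718, minus strand), an activator of limb, lung and mammary programmes, showed the widest gap among the genes detected in a line. Its NSI counts were 3128, 2561 and 3834 in PC3 and 4, 4 and 5 in VCaP. The log2 difference was −7.94 (SE 0.18, edgeR quasi-likelihood adjusted p 3.35e-15). HOXC5, HOXC4 and HOXC6 went the opposite way, higher in VCaP by 6.08, 4.26 and 3.85 on the log2 scale (SE 0.27, 0.19 and 0.13). HOXC5 held only 14 counts over the PC3 NSI libraries. Of the HOXC5, HOXC4 and HOXC6 exon bases, 59.9%, 21.3% and 14.9% are shared with other genes on the same strand, so these are not fully separate readings. HOXA5 and HOXA6 were higher in VCaP by 3.65 and 3.81, and HOXA9 was lower there, at −2.39. HOXB13 itself differed least of these, at −0.52 (SE 0.09).

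The second comparison, siFOXA1 against NSI in PC3, gave more rises than falls among the HOX genes. Of 32 genes tested, 9 rose, 2 fell and 21 were not called. Without siFOXA1 replicate 1, 5 rose and 1 fell, beside 2425 and 1520 of the 27009 genes tested then. With the replicate number as a block, 13 rose and 2 fell, beside 5734 and 5563 of 26435 genes tested. In the fit without the block, 27.0% of the 26435 genes tested in PC3 were called, 15.0% higher and 12.1% lower. The median log2 fold change of the tested HOX genes was 0.38, and that of all genes 0.02. The genes that rose were HOXA5 and HOXA10 in HOXA, HOXB2, HOXB3, HOXB4 and HOXB6 in HOXB, and HOXC4, HOXC6 and HOXC9 in HOXC. The genes that fell were HOXB9 and HOXB13, both at the high end of HOXB. No HOXD gene was called in PC3. The 7 genes not tested held 0 to 20 counts in any PC3 library. Counts over tested genes describe those that passed the filter and not all 39.

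HOXB13, the most abundant, read 346, 360.3 and 362 CPM in PC3 NSI and 274, 262 and 286 CPM in siFOXA1. No siFOXA1 library reached the lowest NSI library. The mean fell to 76.9% of NSI, a log2 change of −0.38 (SE 0.08, edgeR quasi-likelihood adjusted p 0.00935), and the adjusted p was 0.0523 without siFOXA1 replicate 1. HOXB9 fell from 20.7, 18.6 and 20.6 CPM to 14.1, 14.6 and 13.5, with no overlap (log2 fold change −0.51, SE 0.09, adjusted p 0.00438).

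HOXB2, HOXB3, HOXB4 and HOXB6 rose in the same libraries, and HOXB5 was not called (0.14, adjusted p 0.553). HOXB3 (ENSG00000120093.11_3, chromosome 17, 46626232 to 46667634, minus strand), which acts in hindbrain patterning, went from 2.38, 1.90 and 2.28 CPM in NSI to 4.47, 5.09 and 4.60 in siFOXA1. Every siFOXA1 library was above every NSI library, a log2 rise of 1.11 (SE 0.13, edgeR quasi-likelihood adjusted p 0.000609). HOXB6 (chromosome 17, 46673113 to 46682354, minus strand) went from 1.63, 2.08 and 1.72 to 2.72, 3.12 and 2.61 CPM, a log2 rise of 0.64 (SE 0.15, adjusted p 0.0139). Its adjusted p was 0.0504 without NSI replicate 1, 0.0620 without NSI replicate 3 and 0.0510 without siFOXA1 replicate 1. Of the HOXB6 exons, 14.4% lie opposite exons of the antisense RNA HOXB-AS3, whose level rose from 1.05 ± 0.0592 to 2.00 ± 0.212 CPM, and without strand in PC3 the reads of that stretch cannot be told apart. HOXB2 and HOXB4, both under 1 CPM in every mean, rose by 1.32 and 1.31 on the log2 scale. Of the HOXB4 exon bases, 16.1% are shared with HOXB3 or another gene on the same strand. Antisense RNAs lie opposite 5.6% of the HOXB2 and 4.8% of the HOXB3 exon bases, so these rises are not fully separate readings. The HOXB2 call was lost without NSI replicate 2 or 3 or siFOXA1 replicate 1 or 2 (adjusted p 0.0514, 0.0798, 0.0840 and 0.0896).

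In HOXC, HOXC6 (ENSG00000197757.7_4, chromosome 12, 54409681 to 54424607, plus strand), a gene often found raised in prostate tumours, went from 1.75, 1.72 and 1.83 CPM in PC3 NSI to 3.88, 3.69 and 3.34 in siFOXA1. The groups did not overlap, and the mean reached 206% of NSI (log2 fold change 1.04, SE 0.12, adjusted p 0.000595). HOXC4 rose by 1.19 and HOXC9 by 1.62 from NSI means of 0.186 and 0.0999 CPM, and HOXC9 missed the threshold without siFOXA1 replicate 1, at an adjusted p of 0.0557. HOXC4 and HOXC6 are not independent readings, because 21.3% of HOXC4 exon bases and 14.9% of HOXC6 exon bases lie in the other gene or in another gene on the same strand. The HOXC sum rose in value from 1.32 ± 0.0493 to 2.13 ± 0.106 RPKM and still was 1.38% of all HOX RPKM.

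In HOXA, all 11 tested genes had a positive log2 fold change in PC3 and 2 were called. HOXA10 went from 16.0, 19.1 and 17.1 CPM to 23.0, 27.6 and 23.8, above NSI in every library (log2 fold change 0.51, SE 0.11, edgeR quasi-likelihood adjusted p 0.0101). HOXA5 (chromosome 7, 27180671 to 27183287, minus strand), a lung and gut regulator, went from 0.708, 0.704 and 0.490 to 1.10, 1.33 and 0.910 CPM (0.82, SE 0.22, adjusted p 0.0260). Its call was lost without NSI replicate 3, siFOXA1 replicate 1 or siFOXA1 replicate 2 (adjusted p 0.0905, 0.0803 and 0.0784). HOXA9 read 43.4, 50.2 and 44.9 CPM in NSI and 53.0, 63.6 and 44.9 in siFOXA1, with a log2 fold change of 0.22 that was not called (adjusted p 0.245). HOXA13 read 76.6, 68.9 and 75.6 CPM in NSI and 90.5, 81.3 and 86.0 in siFOXA1, also not called (0.22, adjusted p 0.0886). In PC3, counted without strand, 19.3% of the HOXA10 exon bases lie opposite HOXA-AS4, which averaged 13.5 ± 1.17 CPM in NSI and 16.9 ± 1.72 in siFOXA1 (not called). On the same strand, 19.3% of the HOXA9 and 11.7% of the HOXA10 exon bases are shared with the gene HOXA10-HOXA9. HOXA11 read 11.1 ± 0.994 and 12.5 ± 1.08 CPM (not called), and 23.8% of its exon bases lie opposite HOXA11-AS1, which rose from 18.4 ± 3.12 to 26.9 ± 1.97 CPM. With the replicate number as a block, both HOXA9 and HOXA13 passed, at adjusted p 0.0484 and 0.0121, as did HOXA4 (0.0299).

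HOXB7 in PC3 rested on 1 library, and it is named here because its values stood out. The NSI counts were 13, 14 and 567, or 0.0860, 0.102 and 3.05 CPM, and the siFOXA1 counts were 36, 27 and 24. The log2 fold change was −2.53 with an SE of 1.19 (edgeR quasi-likelihood adjusted p 0.149). Without NSI replicate 3 it was 1.02 (adjusted p 0.123), so the sign came from that library. Among tested genes with at least 1 CPM in replicate 3, HOXB7 was the 1 gene that stood there at 10 times or more both other NSI libraries. Each of the other NSI libraries of PC3 also had 1 such gene.

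The third comparison, siFOXA1 against NSI in VCaP, gave almost only falls. Of 26 HOX genes tested, 15 fell, 1 rose and 10 were not called, where 45.8% of all 22925 genes were called, 22.5% higher and 23.3% lower. The median log2 fold change of the tested HOX genes was −0.61, and that of all genes 0.02. HOXC had 7 of 8 tested genes lower (HOXC4, HOXC5, HOXC6, HOXC8, HOXC9, HOXC12 and HOXC13). HOXA had 4 of 10 lower (HOXA4, HOXA6, HOXA10 and HOXA11), HOXD 2 of 3 (HOXD4 and HOXD8) and HOXB 2 of 5 (HOXB7 and HOXB13), with HOXB9 the riser. The 13 genes not tested held 0 to 16 counts in any VCaP library.

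HOXC6 in VCaP read 25.0, 28.6 and 24.4 CPM in NSI and 17.3, 15.4 and 12.3 in siFOXA1. The groups did not overlap, and the mean fell to 57.7% of NSI (log2 fold change −0.79, SE 0.12, edgeR quasi-likelihood adjusted p 0.000554). HOXC4 (chromosome 12, 54410715 to 54449814, plus strand) went from 3.85, 3.87 and 3.28 to 2.12, 1.91 and 1.56 CPM (−0.97, SE 0.15, adjusted p 0.000504), again with no overlap. HOXC5 (chromosome 12, 54426637 to 54429142, plus strand) went from 1.93, 2.57 and 1.86 to 1.47, 1.33 and 1.10 CPM (−0.70, SE 0.18, adjusted p 0.0105). For HOXC5, 59.9% of the exon bases are shared with other genes on its strand, so part of each count could belong to a neighbour. The HOXC sum went from 12.1 ± 1.15 to 6.65 ± 1.18 RPKM.

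The rest of HOXC was low in VCaP. HOXC8, HOXC9, HOXC12 and HOXC13 had NSI means of 0.363 to 0.916 CPM and fell by 1.32, 1.76, 3.05 and 1.27 on the log2 scale. HOXC12, with the lowest adjusted p of these (7.34e-05), went from 28, 28 and 24 counts to 2, 3 and 4.

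The promoter of HOXC4 and HOXC5 is shown because both genes fell together in VCaP and share 1 transcription start in the RefSeq table. In the count tables the genes start apart, at 54410715 for HOXC4 and 54426637 for HOXC5 on GRCh37, so the window need not be the one before the HOXC5 that was counted. Those of HOXA11, HOXD8 and HOXA13 are shown beside it because HOXA11 and HOXD8 fell in VCaP and HOXA13 did not pass the test. Every siFOXA1 library of HOXA13 in VCaP still lay above its NSI libraries. Each run is the 250 bases before the start, 5′ to 3′ on the gene's strand, from RefSeq on GRCh38.p14, a build other than that of the count tables. Capitals mark letters of a forkhead motif, searched on both strands as the letters TGTTTAC, or alternatively the letters TGTTTGC, or else the letters TATTTAC.
HOXC4 and HOXC5, chr12:54016638-54016887, plus strand: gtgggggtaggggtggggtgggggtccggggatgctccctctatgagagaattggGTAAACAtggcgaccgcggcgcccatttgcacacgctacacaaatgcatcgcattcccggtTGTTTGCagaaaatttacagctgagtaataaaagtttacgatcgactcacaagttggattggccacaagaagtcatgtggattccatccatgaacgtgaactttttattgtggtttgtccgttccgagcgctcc
HOXA11, chr7:27185233-27185482, minus strand: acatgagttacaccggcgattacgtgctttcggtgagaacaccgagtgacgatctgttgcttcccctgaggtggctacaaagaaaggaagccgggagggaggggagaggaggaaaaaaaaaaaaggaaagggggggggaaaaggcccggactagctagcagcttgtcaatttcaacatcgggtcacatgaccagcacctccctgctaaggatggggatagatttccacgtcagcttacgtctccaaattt
HOXD8, chr2:176129455-176129704, plus strand: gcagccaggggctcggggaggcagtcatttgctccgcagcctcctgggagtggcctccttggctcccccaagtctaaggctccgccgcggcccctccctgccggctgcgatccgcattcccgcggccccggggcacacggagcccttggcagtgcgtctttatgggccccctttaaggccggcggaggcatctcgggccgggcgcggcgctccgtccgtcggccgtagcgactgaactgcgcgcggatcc
HOXA13, chr7:27200092-27200341, minus strand: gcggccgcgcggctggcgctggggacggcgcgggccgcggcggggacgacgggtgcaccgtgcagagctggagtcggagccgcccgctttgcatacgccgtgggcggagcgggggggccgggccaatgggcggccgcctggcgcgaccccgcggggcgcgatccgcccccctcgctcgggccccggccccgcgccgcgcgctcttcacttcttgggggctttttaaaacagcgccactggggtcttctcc
The HOXC4 and HOXC5 window holds GTAAACA, which is TGTTTAC on the other strand, at 195 to 189 bases before the start, and TGTTTGC at 134 to 128 bases. None of the 3 motifs is in the other windows shown. RefSeq starts were matched for 20 of the 39 genes, with 26 distinct starts, and 3 of these windows (11.5%) held a motif, where 8.28% of 34943 windows of all genes did. The other windows with a motif were those of HOXA2, not called in VCaP, and HOXD1, not tested there. The windows of HOXA4, HOXA6, HOXA10 and HOXD4, which also fell in VCaP, held none. In PC3, HOXC4 rose and HOXC5 was not called. The median GC content of the HOX windows was 58.8% against 58.0% for all, and their median observed over expected CpG was 0.886 against 0.556. These letter matches describe the windows and do not show binding.

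In HOXA of VCaP, HOXA11 (ENSG00000005073.5_2, chromosome 7, 27221134 to 27224835, minus strand), which acts in uterine, kidney and limb development, changed most among the genes detected in that line. It read 5.20, 4.78 and 5.30 CPM in NSI and 1.61, 1.91 and 1.83 in siFOXA1, 35.0% of the NSI mean with no overlap, a log2 change of −1.51 (SE 0.12, edgeR quasi-likelihood adjusted p 9.09e-06). HOXA10 went from 56.8, 57.2 and 61.6 to 40.2, 38.5 and 40.8 CPM (−0.56, SE 0.06, adjusted p 5.03e-05), below NSI in every library. HOXA6 (chromosome 7, 27185015 to 27187393, minus strand) went from 3.72, 4.01 and 3.23 to 2.98, 2.58 and 2.23 CPM (−0.49, SE 0.14, adjusted p 0.0196), a call lost without NSI replicate 1 or 2 or siFOXA1 replicate 2 or 3 (adjusted p 0.0537, 0.0630, 0.0570 and 0.0587) and in the fit of all 12 libraries (0.0696). HOXA13, at the end of the cluster, read 148, 168 and 171 CPM in NSI and 189, 178 and 185 in siFOXA1 and was not called (0.18, adjusted p 0.0741). Its groups did not overlap, and it was called higher with upper-quartile factors (adjusted p 0.0268) and with at least 50 counts in 3 libraries (0.0393). HOXA9 read 8.82, 9.07 and 9.05 CPM in NSI and 9.63, 8.23 and 8.49 in siFOXA1, not called (−0.03, adjusted p 0.795). HOXA4, under 1 CPM, fell by 0.64, and its adjusted p rose past 0.05 without NSI replicate 1 or 2 or siFOXA1 replicate 2 or 3 (0.0975, 0.0987, 0.154 and 0.106), with upper-quartile factors (0.0579), with library size alone (0.0520), with DESeq2 (0.148) and in the fit of all 12 libraries (0.0750).

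HOXB13 in VCaP read 251, 232 and 275 CPM in NSI and 209.6, 217 and 213 in siFOXA1, again without overlap. Its mean fell to 84.4% of NSI (log2 fold change −0.24, SE 0.07, edgeR quasi-likelihood adjusted p 0.0235), and the call was lost without NSI replicate 3 (0.0567), siFOXA1 replicate 1 (0.0586) or siFOXA1 replicate 2 (0.0659) and in the fit of all 12 libraries (0.0761). HOXB7 fell by 0.95, from 29, 26 and 28 counts to 18, 12 and 11, and the call was lost without siFOXA1 replicate 2 (adjusted p 0.0520), with DESeq2 (0.0651) and in the fit of all 12 libraries (0.622). HOXB9, the 1 riser, is named although it stayed under 1 CPM. Its counts went from 4, 4 and 5 to 21, 18 and 14, a log2 rise of 2.06 (SE 0.33, adjusted p 0.000818). HOXB9 in VCaP siFOXA1 averaged 0.347 CPM, against 14.1 CPM in PC3 siFOXA1. HOXB4 held 0 counts in the 3 VCaP NSI libraries and 10 in the 3 siFOXA1 libraries, at least 3.47-fold higher against a floor of 3 counts over the group, and did not pass the filter for a test within VCaP.

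In HOXD of VCaP, HOXD8 (ENSG00000175879.8_4, chromosome 2, 176994422 to 176997423, plus strand) read 2.31, 2.31 and 3.25 CPM in NSI and 1.01, 1.01 and 1.03 in siFOXA1. The siFOXA1 libraries were all below NSI, at 38.8% of its mean (log2 fold change −1.37, SE 0.17, edgeR quasi-likelihood adjusted p 0.000194). HOXD4, under 1 CPM, fell by 2.33 from 18, 30 and 27 counts to 4, 4 and 6, but 80.5% of its exon bases are shared with another gene on the same strand, AC009336.19.

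The 2 lines were next compared directly by the difference of the siFOXA1 effect, VCaP minus PC3. Of 33 HOX genes tested, 17 were called, 15 of them lower and 2 higher, where 22.2% of all 30425 genes were called, 11.0% lower and 11.3% higher. The median difference was −1.04 for the tested HOX genes and 0.05 for all genes. Of the 24 genes tested in both lines, 4 rose in PC3 and fell in VCaP (HOXA10, HOXC4, HOXC6 and HOXC9), 1 fell in PC3 and rose in VCaP (HOXB9), 1 fell in both (HOXB13) and 0 rose in both. Of all 19261 genes tested in both lines, 2.93% rose in PC3 and fell in VCaP, 2.11% did the reverse, 5.72% fell in both and 4.97% rose in both. The differences were −1.04 for HOXA10 (SE 0.12, edgeR quasi-likelihood adjusted p 1.67e-05), −2.14 for HOXC4, −1.81 for HOXC6 and −3.36 for HOXC9. For HOXB9 the difference was 2.60 (SE 0.30, adjusted p 1.52e-05).

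HOXB13 was apart from these, with a difference of 0.15 that was not called (adjusted p 0.420). HOXA11 and HOXD8 differed by −1.66 and −1.39, with PC3 values of 0.17 and 0.04 that were not called in PC3. HOXA5 differed by −1.14 and HOXA6 by −0.999. HOXB4 was called higher at an adjusted p of 0.0387, with no fold because VCaP NSI was at 0, and that call was lost with any of 5 VCaP libraries left out. HOXB7 had a difference of 1.60 that became −2.02 without PC3 NSI replicate 3 (adjusted p 0.00590).

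**Figure D1:**
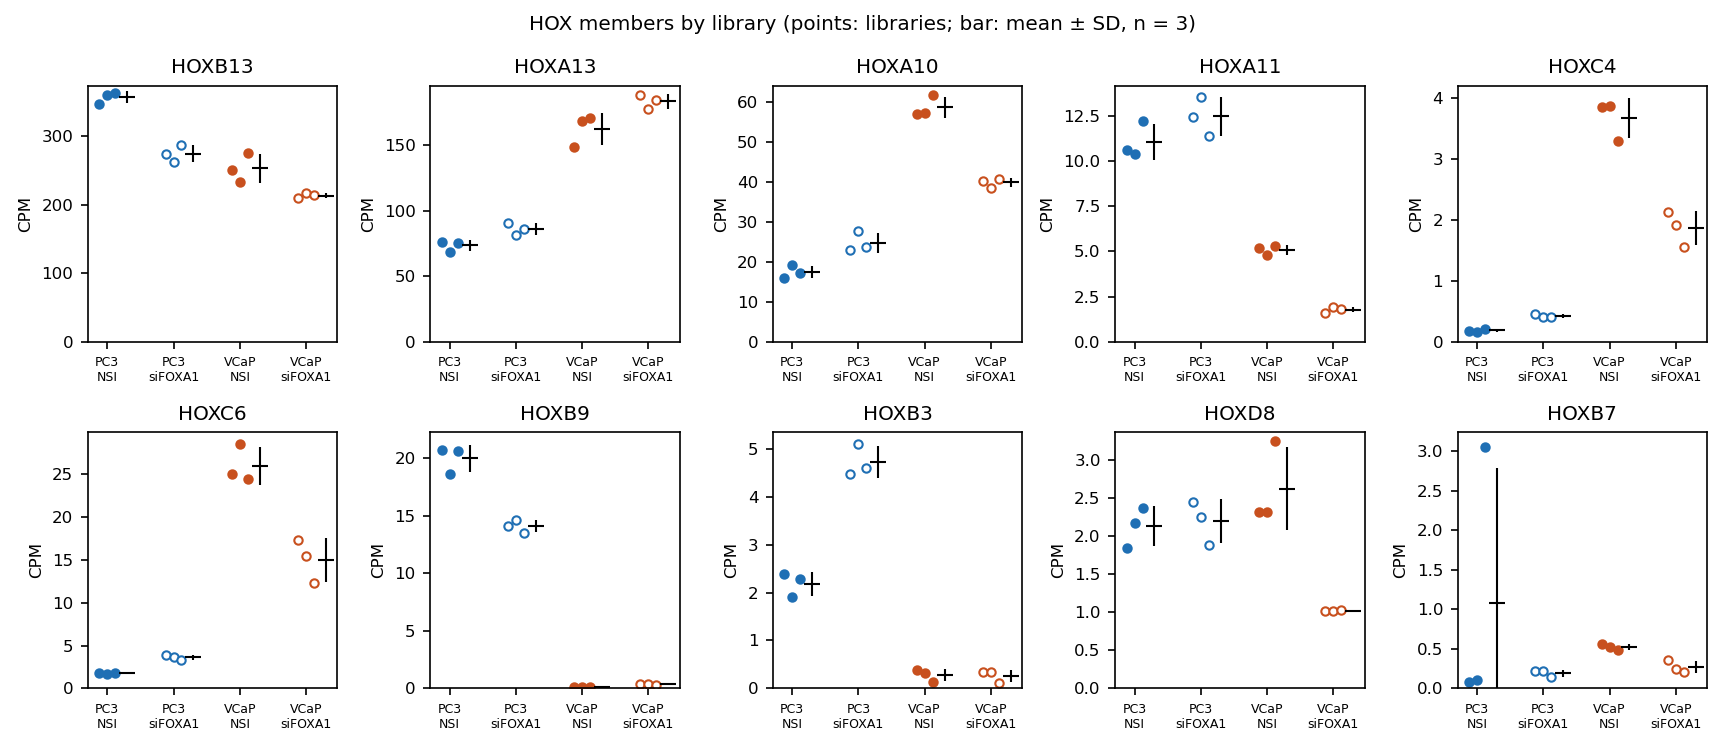
CPM of selected HOX genes in each of the 12 libraries (points), with the mean and SD of each group (bars, n = 3, not drawn below 0). HOXC6 and HOXA10 are higher in siFOXA1 in PC3 and lower in VCaP, HOXB13 is lower in siFOXA1 in both, and 1 PC3 NSI library of HOXB7 stands at 3.05 CPM.

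Non-coding RNAs and pseudogenes listed within the HOX clusters, or within 20 kb of either end, were set beside the coding genes. All 35 were in the tables. In PC3 23 were tested, and 11 rose and 2 fell, with a median log2 fold change of 0.55. Several of these RNAs lie opposite HOX exons, so in PC3, counted without strand, they are not fully separate readings from the coding genes. In VCaP 15 were tested, and 1 rose and 4 fell, with a median of −0.37. Over all genes 15.0% rose and 12.1% fell in PC3, and 22.5% rose and 23.3% fell in VCaP. HOTTIP, a long RNA transcribed from the HOXA13 end of the cluster, rose in both lines. It read 17.5, 17.1 and 17.0 CPM in PC3 NSI and 25.1, 30.1 and 28.7 in siFOXA1 (log2 fold change 0.70, SE 0.09, edgeR quasi-likelihood adjusted p 0.00120). In VCaP it read 45.3, 47.0 and 45.2 CPM in NSI and 88.5, 94.8 and 95.1 in siFOXA1 (1.02, SE 0.06, adjusted p 1.39e-06), while HOXA11 and HOXA10 fell in the same libraries and HOXA13 was not called. HOXB-AS1 and HOXB-AS3 rose in PC3 by 1.15 and 0.93, and parts of both lie opposite exons of HOXB genes that rose there.

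HAGLR, an antisense RNA of the HOXD cluster, went from 2.73, 2.83 and 3.13 to 0.734, 0.775 and 0.628 CPM in VCaP (−2.02, SE 0.15, adjusted p 6.17e-06). It read 1.77, 2.17 and 1.40 CPM in PC3 NSI and 0.778, 0.900 and 0.934 in siFOXA1 (−1.03, SE 0.19, adjusted p 0.00573). AC012531.25, in HOXC, fell by 0.93 in VCaP (14.1 ± 2.34 to 7.36 ± 0.612 CPM), the direction of the HOXC coding genes there, and rose in PC3 from 0.104 ± 0.0404 to 0.397 ± 0.0654 CPM.

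**Figure D2:**
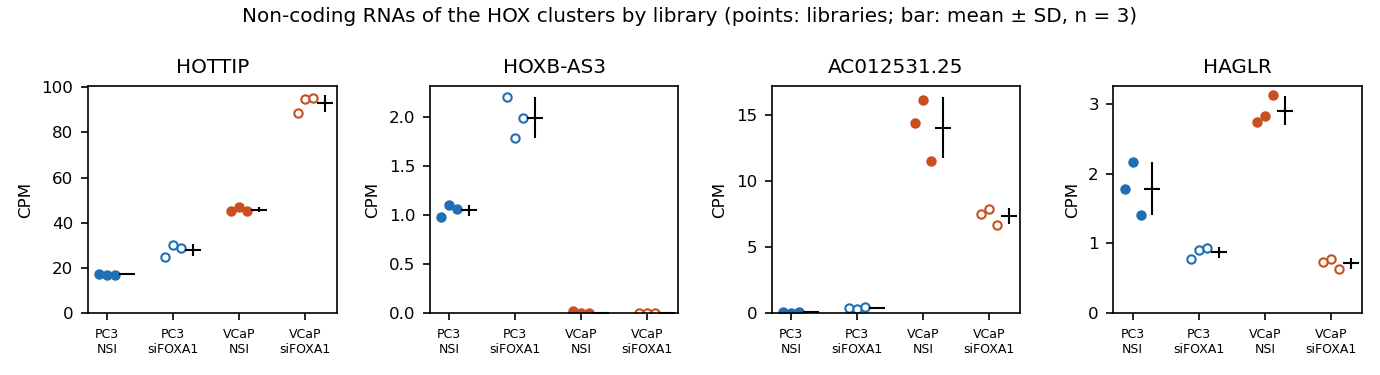
CPM of 4 non-coding RNAs of the HOX clusters in each library (points), with the mean and SD of each group (bars, n = 3). HOTTIP is higher in siFOXA1 in both lines, HAGLR is lower in both, and AC012531.25 falls in VCaP from a mean of 14.1 to 7.36 CPM.

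HOX proteins bind DNA with TALE homeodomain cofactors, the PBX, MEIS and PKNOX families. Of 9 such cofactor genes, 8 were tested in PC3, and 1 rose and 0 fell, beside 15.0% and 12.1% of all genes there. In VCaP, 8 were tested, 1 rose and 5 fell, beside 22.5% and 23.3% of all genes. PBX3 fell from 58.2 ± 4.06 to 37.2 ± 2.39 CPM (−0.65), PKNOX2 fell from 0.448 ± 0.198 to 0.0392 ± 0.0199 CPM (−3.42), and MEIS1, the riser, went from 5.18 ± 0.607 to 8.50 ± 0.398 CPM (0.72).

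Genes that neighbour the HOX genes were listed as a local reference, with PRAC1 and PRAC2 between HOXB9 and HOXB13 and the others outside the clusters. Of 15 such genes, 13 were tested in each line. In PC3 4 rose and 0 fell, and in VCaP 5 rose and 3 fell, where 27.0% and 45.8% of all genes were called. TTLL6, a tubulin glutamylase gene next to HOXB13, rose in both lines, from 1.65 ± 0.0697 to 5.11 ± 0.241 CPM in PC3 (1.63) and from 2.81 ± 0.0820 to 6.40 ± 0.563 in VCaP (1.18), while HOXB13 fell in both. CALCOCO1, near HOXC13, rose by 0.47 in PC3 and by 0.72 in VCaP, where the HOXC genes fell, and CBX5, beyond the HOXC4 end, fell by 0.55 in VCaP. KIAA1715, beyond HOXD13, rose by 0.48 in PC3.

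Polycomb complexes silence HOX clusters, trithorax complexes keep them active and retinoic acid receptors induce their low positions. A list of 28 chromatin and retinoid regulators of HOX genes held members of these classes and others. Of the 28, 25 were tested in PC3, where 2 rose and 9 fell, and 27 in VCaP, where 7 rose and 8 fell. Of all genes, 27.0% were called in PC3 and 45.8% in VCaP. In PC3 the Polycomb genes CBX2, BMI1 and SUZ12 fell, from 131 ± 4.47 to 57.0 ± 2.66 CPM (−1.20), from 193 ± 16.4 to 99.1 ± 3.34 (−0.96) and from 60.7 ± 3.43 to 41.0 ± 2.69 (−0.57). In VCaP the Polycomb genes EZH1 and CBX7 rose by 0.79 and 0.63, and WDR5, a trithorax complex subunit, fell by 0.59. Whether these changes bear on the HOX genes was not tested.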

How the data were processed

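Per the file headers, the authors deposited estimated counts per gene (expected counts, not normalized) made with featureCounts on the GENCODE v28lift37 basic annotation of GRCh37. Exons were summed by gene, a fragment had to have both ends mapped, and fragments that mapped to several places or genes were divided among them. Strand was ignored in PC3 and reverse in VCaP. STAR 2.7.3a and Subread 2.0.0 are named in the submitters' processing notes. Counts were rounded to whole numbers.

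Each line was fitted on its 6 libraries with edgeR 4.0.16 in R 4.3.3 (filterByExpr, then TMM factors, two-sided quasi-likelihood test, Benjamini-Hochberg over all genes tested). A call is an adjusted p under 0.05. The difference between lines and the NSI contrast came from a fit of all 12 libraries. SE is the log2 fold change divided by the square root of F. CPM used TMM factors within a line, and RPKM is CPM per kb of exon. Fits were tested on simulated data. Biological coefficients of variation were 15.0% (PC3) and 9.90% (VCaP). Replicates of a group differed by a chi-square per degree of freedom of 11.0 to 158.5, so none was a copy. Exon overlaps were computed from the tables' own coordinates.

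The members, the gene lists and the tests were chosen with earlier results of these data known. Full values are given for members called in a line and averaging 1 CPM or more there, and for the 3 highest NSI members of each line. Of each list, at most the 3 called genes of smallest adjusted p per line are named. Genes outside this rule are named after their values were seen, and some genes that the rule or the marker list takes are counted but not reported here by name. Replicate numbers come from the sample titles. In PC3, deviations of same-numbered libraries correlated at 0.45, 0.59 and 0.25 over genes averaging 1 CPM or more (0.15, 0.31 and 0.09 over all tested genes). Over the genes averaging 1 CPM or more, NSI replicate 1 correlated with siFOXA1 replicate 3 at 0.35, and NSI replicate 3 with siFOXA1 replicate 1 at 0.24. These values do not tell replicates 1 and 3 apart, so whether the PC3 libraries were paired by number is uncertain. The PC3 values printed are from the fit without the block, as designed, and blocked values stand beside the calls they change. In VCaP same-numbered libraries correlated at 0.11, 0.03 and 0.39, and VCaP was not taken as paired. Alternatives were DESeq2 1.42.0, other scalings, other filters, a replicate block, a fit of all 12 libraries and each library left out.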

Additional observations from a re-analysis of the deposited data

Results flagged for a closer look

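A test of the difference itself marked the following genes, whose siFOXA1 effect was unlike in the 2 lines, each as VCaP minus PC3 on the log2 scale from edgeR's fit of all 12 libraries. In HOXA these were HOXA4 at −1.06, HOXA5 at −1.14, HOXA6 at −0.999, HOXA10 at −1.04 and HOXA11 at −1.66. In HOXB they were HOXB9 at 2.60 and HOXB4, whose adjusted p was 0.0387 and which has no fold because VCaP NSI held 0 counts. In HOXC they were HOXC4 at −2.14, HOXC5 at −1.93, HOXC6 at −1.81, HOXC8 at −1.52, HOXC9 at −3.36 and HOXC12 at −3.50. In HOXD they were HOXD3 at −1.90, HOXD4 at −2.63 and HOXD8 at −1.39. Some of these rest on few counts in 1 line. HOXC12 held 6 counts over the PC3 NSI libraries and 8 over the siFOXA1 libraries, and did not pass the filter within PC3. HOXD3 held 32 and 10 counts in VCaP and did not pass the filter there. HOXC5 held 14 and 33 counts in PC3, where it was not called. With 1 VCaP library left out, the calls were lost for HOXA4 (adjusted p 0.0640 without siFOXA1 replicate 2), HOXC8 (0.0578 without NSI replicate 2 and 0.0670 without siFOXA1 replicate 3) and HOXD3 (0.0502, 0.0636 and 0.0513 without NSI replicate 2, siFOXA1 replicate 2 and siFOXA1 replicate 3), and that of HOXB4 with any of 5 VCaP libraries left out. HOXD3 shares 88.5% of its exon bases with AC009336.19, as HOXD4 does for 80.5%, so these are not separate readings. The siRNA target itself fell further in VCaP than in PC3, and the part of that gap, of dose, medium, kit and strand setting in these differences cannot be told apart from the line.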

How the results depend on the processing

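Of the HOX genes called with a fold, 6 of 11 in PC3, 12 of 16 in VCaP and 13 of 16 for the difference were called under every alternative that could test them, and 0 reversed. Of the genes not called, 6 in PC3, 3 in VCaP and 4 for the difference gained a call of the same sign under some alternative. HOXA5 was called lower in VCaP in 4 of 14 alternatives. HOXA3 and HOXB3 were each called lower for the difference in 4 of 19. With the replicate number as a block, PC3 calls rose from 7149 to 11297 genes, with 13 HOX genes higher and 2 lower. The same block gave 11482 genes in VCaP, with 17 HOX genes lower, and 8812 for the difference. Leaving out 1 library moved the PC3 count between 3945 (without siFOXA1 replicate 1) and 7592, with 4602 without NSI replicate 3, the HOX genes higher in PC3 between 5 and 9, those lower between 1 and 2, and the HOX genes higher for the difference between 1 and 2. DESeq2 also gave 1 of the last. HOX genes higher in VCaP numbered 2 with upper-quartile factors, without a filter and in the fit of all 12 libraries, and those lower numbered 8 with at least 50 counts in 3 libraries, where 13 were tested. At 0.5 RPKM, 15 genes were detected in PC3, HOXB7 among them through NSI replicate 3 alone. With library size alone, the calls for the difference split into 2643 higher and 3880 lower, against 3427 and 3333. The values that changed sign did so mostly with 1 library left out, and their lowest and highest values then were, in PC3, −3.07 and 1.02 for HOXB7 and −0.055 and 0.12 for HOXD8. In VCaP they were −0.11 and 0.014 for HOXA9 (0.016 with upper-quartile factors), −0.43 and 0.28 for HOXB3 and −0.057 and 0.42 for HOXC11. For the difference they were −0.15 and 0.017 for HOXA13, −0.74 and 3.23 for HOXB2, −0.29 and 0.065 for HOXB6, −2.02 and 2.10 for HOXB7 and −1.67 and 0.096 for HOXB8, and for the NSI level −1.67 and 2.45 for HOXB7. Beyond the fewer libraries or genes, the cause was not tested. The filter left out HOX genes with at most 20 counts in any PC3 library or 16 in any VCaP library, whose changes were not testable at this depth.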
